A study of Mus musculus with 15 samples.

Results

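The genes described here, 105 of the 19938 compared in this series, carry names used for splicing factors and spliceosome components. Not all Rbm members act in splicing, and Rbm3os is an antisense RNA. They were chosen by name: the platform's symbol had to begin with Srsf, Hnrnp, Snrnp, Snrp, Sf3a, Sf3b, Rbm or Prpf, and the probe set had to carry that symbol alone. Where a gene had several such probe sets, the brightest over all arrays was used. By family there were 10 Srsf genes, 17 Hnrnp genes, 16 Snrnp or Snrp genes, 9 Sf3a or Sf3b genes, 12 Prpf genes and 41 Rbm genes.

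Splicing removes introns from nuclear pre-mRNA and joins the exons. The U1 and U2 small nuclear ribonucleoproteins (snRNPs) mark the 5′ splice site and the branch point, the U4/U6.U5 tri-snRNP then joins, and the activated spliceosome carries out both steps of the reaction. SR proteins (Srsf) bind exons and mostly favour their inclusion, while heterogeneous nuclear ribonucleoproteins (Hnrnp) often act against it. Several SR and related genes hold poison exons or retained introns through which their own mRNA is controlled, and the brain uses alternative splicing widely as neurons mature.

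Expression was profiled in the right hippocampus of male mouse pups of the strain C57BL/6 at postnatal day 9, counting birth as day 1, after treatment that began on day 5. The 5 groups held 3 pups each. CC pups were untreated controls. A mild stress was combined with saline vehicle in MSS and with the opioid morphine in MSM, and a severe stress was combined with vehicle in SSS and with morphine in SSM. All groups shared strain, sex, age and tissue, and litters were limited to 7 pups. No source used here describes either stress, the morphine dose or which pups were littermates, and p-values therefore cover only the spread between these arrays. Total RNA was read on Affymetrix Mouse Gene 1.0 ST arrays, which place probes along the exons of each gene and do not separate its transcripts here.

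Values are log2 intensities, and differences are log2 differences with their standard error (SE) from limma. Adjusted p-values are Benjamini-Hochberg values over all 19938 genes of a comparison with a threshold of 0.05. The array SSM replicate 3 had a median of 5.60 and its genes a median upward shift of 0.15, while the other 14 array medians ranged from 5.41 to 5.51, so differences are also given relative to the median of all genes. Of the members, 101 were above 4.76, the 95th percentile of 1027 olfactory receptor genes, which stand here for background. The 4 below it were Rbm20, Rbm44, Rbm8a2 and Rbm3os, an antisense RNA at the Rbm3 locus, which the array counts apart from Rbm3. The number of arrays limits the precision: a difference between 2 groups had a typical SE (median over genes) of 0.0805. Sample titles include an SS number that no label explains. It was 12 for CC, 11 for all mild-stress arrays, and 8, 9 or 10 for severe-stress arrays. It is nested in the stress level, so the effect of stress severity and that of the SS number cannot be told apart. CC alone had number 12, so the same holds for each comparison with CC. Only SSS arrays had number 10 and only SSM arrays number 9. SSM against SSS, the averaged morphine comparison and the interaction are therefore also partly bound to the SS number.

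Promoters are shown for the 5 members that were below mild stress on every severe-stress array in the comparison below, Snrnp70, Srsf5, Srsf6, Prpf39 and Sf3b1. That of Sf3a2, an SF3 gene with the opposite sign to Sf3b1, is added. Each is the 250 bases before the RefSeq transcription start in mouse assembly GRCm38.p6, read 5′ to 3′ on the gene's strand. Snrnp70 encodes an RNA-binding protein of the U1 snRNP, and its window is chr7:45395743-45395992 on the minus strand. Srsf5 encodes an SR protein, with its window at chr12:80945249-80945498 on the plus strand, and Srsf6 another, at chr2:162931258-162931507 on the plus strand. Prpf39 encodes a U1-associated protein, with its window at chr12:65036084-65036333 on the plus strand. Sf3b1 encodes the branch-point scaffold of the U2 snRNP, with its window at chr1:55027479-55027728 on the minus strand. Sf3a2 encodes a U2 snRNP subunit, with its window at chr10:80798485-80798734 on the plus strand. Capitals mark matches on either strand to 7 motifs. These were the GC box spelled GGGCGG, the CCAAT box, whose letters are its name, and the cyclic AMP response element spelled TGACGTCA. The E-box was searched as CACGTG and the ETS family site as CGGAAG. The NRF1 core was searched as GCATGCGC and the core of the glucocorticoid receptor element as TGTTCT.
Snrnp70: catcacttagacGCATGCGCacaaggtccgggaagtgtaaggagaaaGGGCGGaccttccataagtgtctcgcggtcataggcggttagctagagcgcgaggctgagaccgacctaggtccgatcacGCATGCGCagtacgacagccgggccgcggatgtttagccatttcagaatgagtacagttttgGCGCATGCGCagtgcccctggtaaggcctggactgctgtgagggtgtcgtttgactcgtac
Srsf5: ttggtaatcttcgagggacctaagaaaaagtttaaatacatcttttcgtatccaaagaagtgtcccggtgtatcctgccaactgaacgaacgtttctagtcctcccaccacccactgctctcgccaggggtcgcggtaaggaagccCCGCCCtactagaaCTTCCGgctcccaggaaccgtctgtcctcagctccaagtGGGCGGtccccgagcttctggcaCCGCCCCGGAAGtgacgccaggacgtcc
Srsf6: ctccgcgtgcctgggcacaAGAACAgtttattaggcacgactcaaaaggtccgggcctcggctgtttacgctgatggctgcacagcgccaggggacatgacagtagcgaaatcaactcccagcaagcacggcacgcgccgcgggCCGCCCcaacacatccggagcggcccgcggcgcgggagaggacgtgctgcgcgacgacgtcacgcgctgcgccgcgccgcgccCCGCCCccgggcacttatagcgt
Prpf39: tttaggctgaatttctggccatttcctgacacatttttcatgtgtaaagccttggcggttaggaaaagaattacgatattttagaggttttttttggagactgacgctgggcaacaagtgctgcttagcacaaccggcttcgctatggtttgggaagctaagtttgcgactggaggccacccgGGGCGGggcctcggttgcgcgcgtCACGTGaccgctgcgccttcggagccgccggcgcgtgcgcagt
Sf3b1: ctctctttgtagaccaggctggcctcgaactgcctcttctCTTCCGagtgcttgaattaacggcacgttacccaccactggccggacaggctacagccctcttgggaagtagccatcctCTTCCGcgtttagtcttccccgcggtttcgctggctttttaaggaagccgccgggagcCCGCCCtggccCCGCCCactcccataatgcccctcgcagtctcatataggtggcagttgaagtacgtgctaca
Sf3a2: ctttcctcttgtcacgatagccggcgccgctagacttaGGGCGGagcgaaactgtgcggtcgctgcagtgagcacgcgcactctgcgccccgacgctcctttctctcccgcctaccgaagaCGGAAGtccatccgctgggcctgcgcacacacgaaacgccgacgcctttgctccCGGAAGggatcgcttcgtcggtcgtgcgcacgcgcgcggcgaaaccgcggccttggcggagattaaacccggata
The Snrnp70 window holds 4 NRF1 core matches over both strands, of which the last 2 overlap, and 1 GC box. The Srsf5 window holds 3 GC boxes and 2 ETS sites, of which the last GC box and the last ETS site adjoin without sharing a base. The Srsf6 window holds 2 GC boxes and 1 match to the glucocorticoid receptor letters, and the Prpf39 window holds 1 GC box and 1 E-box. The Sf3b1 window holds 2 GC boxes and 2 ETS sites, and the Sf3a2 window holds 1 GC box and 2 ETS sites. A promoter window was found for 90 of the 105 members. The ETS letters were present in 48.9% of member windows and in 20.3% of the windows of all 15614 genes that had one. GC box letters were present in 58.9% of member windows and 49.3% of all, and CCAAT letters in 43.3% and 38.8%. The glucocorticoid receptor letters were in 6.67% of member windows and 15.4% of all. E-box letters were in 13.3% and 8.11%, NRF1 core letters in 4.44% and 3.59%, and the cyclic AMP response element in 2.22% and 2.33%. These matches describe the letters only, and no binding was measured.

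Severe stress was compared with mild stress first, averaged over saline and morphine. Values of 5 members, Snrnp70, Srsf5, Prpf39, Sf3b1 and Srsf6, were lower on all 6 severe-stress arrays than on all 6 mild-stress arrays, by mean differences of 0.15 to 0.38. At an unadjusted p under 0.05, 5 of 9 SF3 genes, with Snrpg, Rbm22 and Prpf18, had higher values by 0.08 to 0.16, with overlapping arrays. No member passed the threshold: limma gave an adjusted p under 0.05 to 0 of 105 members and to 2 of 19938 genes, or 0.01%, and the smallest adjusted p of a member was 0.0832, for Snrnp70. At an unadjusted p under 0.05, 14 members (13.3%) were lower, against 2.8% of all genes, and 10 members (9.52%) were higher, against 9.28% of all genes. With each array centred on its median these counts were 19 lower and 6 higher, against 5.02% and 5.73% of all genes, and with quantile normalization they were 25 and 5, against 6.17% and 4.92%. The 5 members below mild stress on every severe-stress array compare with 0.411% of all genes, and 0 members were above on every array, against 0.687%. The median of all members, 0.03, differed from the all-gene median of 0.04 by only -0.0058.

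Srsf5 had the smallest p among the SR proteins. It read 10.26, 10.18 and 10.25 in CC, 10.35, 10.25 and 10.19 in MSS and 10.32, 10.20 and 10.39 in MSM. It read 9.77, 9.99 and 10.15 in SSS and 10.15, 9.88 and 9.89 in SSM. All severe-stress arrays were thus below all mild-stress arrays and all controls, with SSS replicate 3 and SSM replicate 1 closest to them. The averaged difference was -0.31 (SE 0.0673, limma adjusted p = 0.107), a change of -19.4% on the linear scale. A second Srsf5 probe set gave -0.28 (SE 0.0642).

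Srsf6, another SR protein, showed the same order at a smaller size. It read 9.17, 9.06 and 8.96 in CC, 9.14, 9.15 and 9.13 in MSS and 9.08, 9.10 and 9.21 in MSM. It read 8.74, 8.96 and 9.06 in SSS and 8.97, 8.88 and 8.91 in SSM. Severe and mild stress did not overlap, but controls overlapped with severe stress. The difference was -0.22 (SE 0.0557, limma adjusted p = 0.147). Srsf11, an SR-related protein that contacts the U2 auxiliary factor, was lower by 0.15 (difference -0.15, SE 0.0588), with overlapping arrays.

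The remaining Srsf genes stayed close to 0, from -0.05 for Srsf1, the founding SR protein, to 0.03 for Srsf12. Srsf3, Srsf9, Srsf4, Srsf10 and Srsf2 lay between them. Relative to the all-gene median, 10 of 10 Srsf genes were below it, and the family median was 0.05 below it (-0.0472). Srsf12 was only 0.0017 below it. Taken within each drug, 6 of the 10 were below the all-gene median with both drugs and 4 had opposite directions. Over the 28 alternatives this family value ranged from -0.0873 to -0.00516. The direction of Srsf2 on the log2 scale turned from 0.02 to below 0 when arrays were centred or quantile-normalized. A dimmer probe set of Srsf3 gave 0.15 (SE 0.138), against -0.02 for the probe set used.

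**Figure D1:**
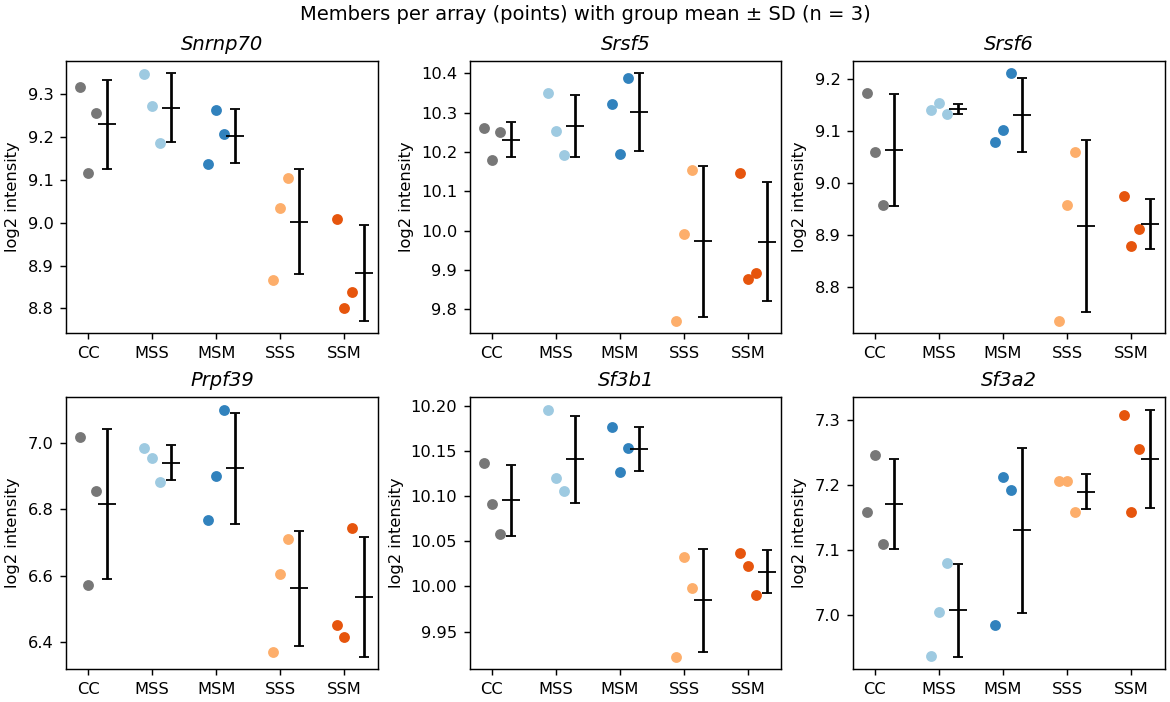
Log2 intensity (vertical axis) of 6 members in the 5 groups (horizontal axis): points are arrays, and the dash with bars beside them is the group mean ± SD (n = 3). Snrnp70, Srsf5, Srsf6, Prpf39 and Sf3b1 have all 6 severe-stress arrays below all 6 mild-stress arrays, while Sf3a2 is lowest in MSS and overlaps between MSM and the severe-stress groups.

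The Snrnp and Snrp genes encode the snRNP core and the proteins particular to each snRNP. Snrnp70, which binds U1 RNA, read 9.32, 9.11 and 9.26 in CC, 9.34, 9.27 and 9.19 in MSS and 9.14, 9.26 and 9.21 in MSM. It read 8.87, 9.03 and 9.10 in SSS and 9.01, 8.80 and 8.84 in SSM. The highest severe-stress array lay just under the lowest control and mild-stress arrays. The averaged difference was -0.29 (SE 0.0563), a change of -18.3%.

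The other U1-specific proteins did not share that difference in size: Snrpa gave 0.03 and Snrpc 0.04, both near the all-gene median. Snrnp48, of the minor U11/U12 snRNP, gave -0.15 (SE 0.0590), whereas its companions Snrnp35 and Snrnp25 gave 0.03 and 0.04. Snrnp48 was dim, at group means from 5.22 to 5.41. Snrpg, a ring protein common to the spliceosomal snRNPs, read 7.45, 7.47 and 7.49 in MSS and 7.57, 7.58 and 7.48 in MSM. It read 7.56, 7.56 and 7.49 in SSS and 7.73, 7.68 and 7.84 in SSM. Only SSM stood above the other groups, and the averaged difference was 0.14 (SE 0.0502, limma adjusted p = 0.312). A second Snrpg probe set gave 0.09 (SE 0.0471). The other ring proteins ranged from -0.04 for Snrpd1 to 0.09 for Snrpd2. Across the 16 genes the median equalled that of all genes to within 0.001 (0.000402 above it).

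The SF3a and SF3b complexes hold the U2 snRNP at the branch point, and their genes split. Sf3b1 read 10.20, 10.12 and 10.11 in MSS and 10.18, 10.13 and 10.15 in MSM. It read 9.92 to 10.03 in SSS, with a mean of 9.98, and 10.04, 10.02 and 9.99 in SSM. Control arrays, at 10.14, 10.09 and 10.06, also lay above every severe-stress array. The difference was -0.15 (SE 0.0367, limma adjusted p = 0.142), a change of -9.61%.

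Of the other 8 SF3 genes, 7 were above the all-gene median. At an unadjusted p under 0.05, 5 of the 9 were higher, against 9.28% of all genes. These were Sf3a2 and Sf3b4 by 0.15, Sf3b6 by 0.16, Sf3a1 by 0.10 and Sf3b2 by 0.08. A second Sf3b4 probe set gave 0.12 (SE 0.0953). Over all families, the 10 higher members became 6 with arrays centred on their median. Sf3b6, the small subunit that contacts the branch point, had the smallest values in MSS, at 6.45, 6.53 and 6.45. It read 6.70, 6.55 and 6.74 in MSM, 6.60, 6.67 and 6.51 in SSS, and 6.82, 6.69 and 7.07 in SSM. Its groups overlapped, and SSM replicate 3 was the highest array. Sf3b5, the smallest SF3b subunit, gave 0.17 (SE 0.0775), Sf3b3 gave 0.05 and Sf3a3 -0.02. The family median was 0.06 above that of all genes, and between 0.0253 and 0.127 above it over the 28 alternatives. The upper end was reached without the SSM arrays of SS number 9. Against CC, the family median minus that of all genes was -0.0705 in MSS and -0.0234 in MSM. It was -0.0099 in SSS and 0.0160 in SSM, so the mild-stress groups lay further below CC than SSS did. Sf3a3 turned above 0 without MSS replicate 1 or without SSS replicate 2, to 0.03 and 0.01.

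Prpf genes encode pre-mRNA processing factors, and their extremes pointed in opposite directions. Prpf39, a U1-associated protein, read 6.98, 6.95 and 6.88 in MSS and 6.77, 6.90 and 7.10 in MSM. It read 6.37, 6.61 and 6.71 in SSS and 6.45, 6.41 and 6.74 in SSM. All severe-stress arrays were below all mild-stress arrays, but CC, at 7.02, 6.57 and 6.86, overlapped with both. The difference was -0.38 (SE 0.0868, limma adjusted p = 0.115), or -23.3%, the lowest of the 105 members.

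Prpf4b, a kinase of the spliceosome, gave -0.18 (SE 0.0510), and Prpf38b, which carries an SR-like tail, gave -0.21 (SE 0.0613). Prpf40b, also linked to U1, gave -0.08. Factors of the tri-snRNP lay closer to the all-gene median: Prpf3 at -0.03, Prpf6 and Prpf8 at 0.04, Prpf31 at 0.05 and Prpf4 at 0.07, with the U5 helicase Snrnp200 at -0.07. Prpf18, which acts in the second step of splicing, gave 0.14 (SE 0.0469, limma adjusted p = 0.268), and Prpf19, the core of its namesake complex, 0.08. The median of the 12 genes was 0.00331 above that of all genes.

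**Figure D2:**
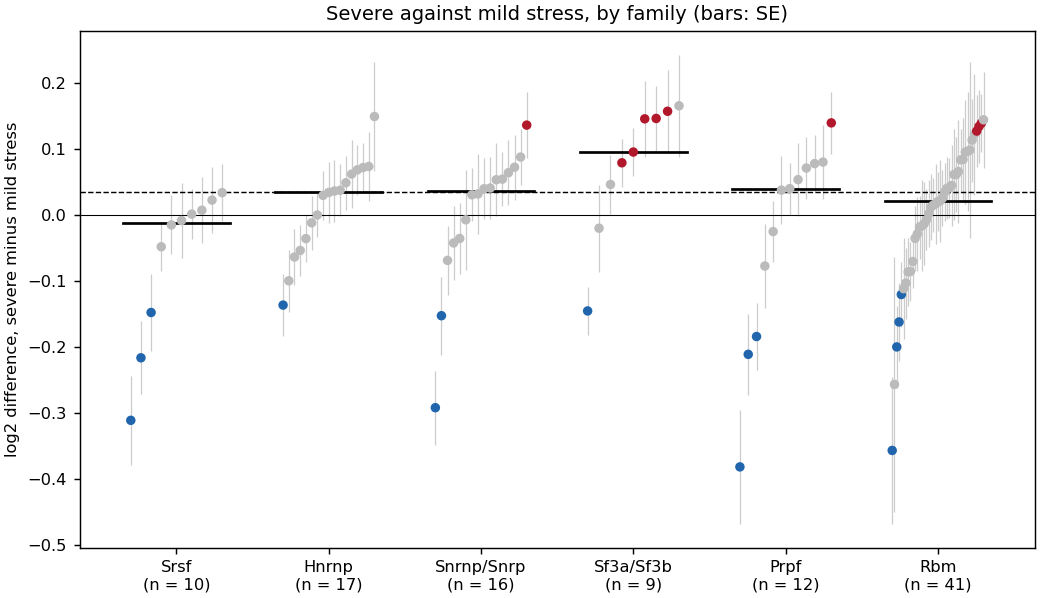
Log2 difference, severe minus mild stress averaged over saline and morphine (vertical axis), of each member by family (horizontal axis), with SE bars. Blue points are lower and red points higher at an unadjusted p under 0.05, black lines are family medians and the dashed line is the median of all genes, 0.04. Blue points reach -0.38 for Prpf39, and the Sf3a/Sf3b family has 5 red points and 1 blue point.

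Among the 17 Hnrnp genes, only Hnrnpa2b1, an abundant RNA-binding and transport protein, was lower at an unadjusted p under 0.05. It read 10.30, 10.36 and 10.25 in MSS, 10.29, 10.28 and 10.42 in MSM, 10.13, 10.19 and 10.27 in SSS and 10.26, 10.06 and 10.16 in SSM. The groups overlapped at SSS replicate 3 and SSM replicate 1, and the difference was -0.14 (SE 0.0473, limma adjusted p = 0.277). Hnrnpdl gave -0.10 and Hnrnpm -0.06. Hnrnpc, which coats uridine-rich introns, gave 0.15 (SE 0.0821), and 0.09 without SSM replicate 3, which read 9.44 against 8.78 to 9.17 on the other arrays. Hnrnpk, Hnrnpu, Hnrnpd, Hnrnpf and Hnrnpl lay between -0.04 and 0.05. The family median minus that of all genes was -0.00134.

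The 41 Rbm genes share an RNA-binding motif rather than a function, and not all act in splicing. At an unadjusted p under 0.05, 4 were lower (9.76%) and 3 higher (7.32%), against 2.8% and 9.28% of all genes. Rbm5, a regulator of exon choice in apoptosis genes, read 9.79, 9.72 and 9.62 in MSS, 9.56, 9.64 and 9.75 in MSM, 9.36, 9.52 and 9.68 in SSS and 9.35, 9.37 and 9.59 in SSM. It differed by -0.20 (SE 0.0620, limma adjusted p = 0.231), with SSS replicate 3 among the mild-stress values.

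Rbm12b2 had the widest spread of these, at 7.56, 7.38 and 7.25 in MSS and 6.74, 6.61 and 7.27 in SSS, and differed by -0.36 (SE 0.112, limma adjusted p = 0.232). Rbm26 gave -0.16 and Rbm25, a U1-associated SR-like protein, -0.12. All 4 probe sets of Rbm25 were below 0, from -0.12 to -0.19. Rbm22, which binds the catalytic RNA core, gave 0.14 (SE 0.0439), Rbm46 0.13 and Rbm42 0.13. Rbm3, the cold-inducible protein studied for synapse maintenance, gave -0.07. Probe sets of Rbm6 disagreed, at 0.002 for the one used and -0.18 for a dimmer one. Of 22 measured Rbm genes with a known role in splicing, 2 were lower and 2 higher at an unadjusted p under 0.05, with a median 0.0164 below that of all genes.

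Rbms3 and Rbm47 had single arrays far from the rest. Rbms3 read 8.54 on MSM replicate 3 and 6.77 to 7.34 on the other 14 arrays. That array also had the highest mean of 13 thalamus markers, 7.90 against 6.57 to 6.98 elsewhere, and the lowest mean of 10 hippocampal neuron markers, 7.99 against 8.64 to 9.11. Rbm47 read 4.67 on MSS replicate 1 and on SSS replicate 2, and those arrays, with MSS replicate 2, had the lowest means of 14 choroid plexus markers, 5.39 to 5.50 against 6.31 to 7.40. In whole tissue, fewer cells of a type and less RNA per cell cannot be told apart.

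**Figure D3:**
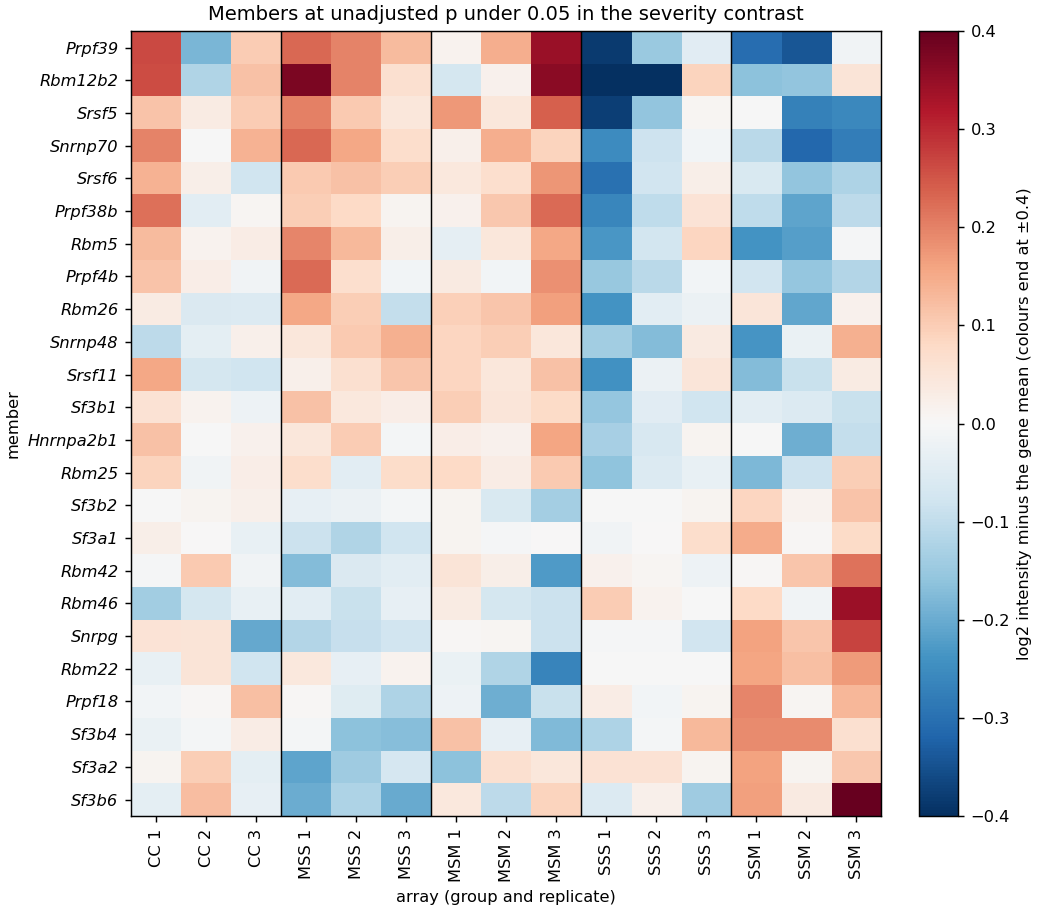
Members at an unadjusted p under 0.05 in the severity comparison (rows, 14 lower above and 10 higher below) on the 15 arrays (columns), coloured by log2 intensity minus the gene mean, with colours ending at 0.4 on either side. SSS replicate 1 and SSM replicate 2 are blue for most of the 14 lower members, while SSS replicate 3 is paler.

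The same comparison within each drug shared no arrays, but the SS number separated severe from mild stress in both. Agreement between the drugs therefore cannot tell severity from the SS number. With saline, SSS against MSS, 0 of 105 members passed the adjusted threshold in limma (0% of all genes), and 9 were lower and 2 higher at an unadjusted p under 0.05, against 1.57% and 1.28% of all genes. With morphine, SSM against MSM, again 0 passed (0% of all genes), and 9 were lower and 15 higher, against 2.26% and 12.1%. Snrnp70 gave -0.27 (SE 0.0796) with saline and -0.32 (SE 0.0796) with morphine, Srsf5 -0.29 and -0.33, Prpf39 -0.38 and -0.39, Srsf6 -0.22 and -0.21, and Sf3b1 -0.16 and -0.14. These 5 were picked because every severe-stress array was below every mild-stress array. A difference below 0 with each drug was therefore fixed by that choice and is no separate support. None of these 5 had an unadjusted p under 0.05 in limma for the interaction of morphine and severity.

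Relative to the all-gene median of each comparison, 73 of 105 members (69.5%) had the same direction with both drugs, against 57.5% of all genes. The 9 SF3 genes all did. All 9 members lower with saline were also below the all-gene median with morphine, as were 88.8% of all genes lower with saline. In the other direction the 9 members lower with morphine were below that median with saline, as were 86.7% of all such genes. Across the 105 members the differences correlated with r = 0.61, and across all genes with r = 0.33. Of the members 101 were above the olfactory receptor background, against 14281 of the 19938 genes. The part of expression level in this contrast was not tested. Genes are not independent replicates, and within a drug they share arrays.

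Rbm12b2 was lower with saline (-0.52, SE 0.158), although its SSS and MSS arrays overlapped. At 7.29 ± 0.23 (SD, n = 3) in MSM and 7.09 ± 0.12 in SSM its groups overlapped with morphine too. Rbm22 was higher with morphine (0.29, SE 0.0621, limma adjusted p = 0.156), where SSM read 8.50, 8.46 and 8.51 and MSM 8.32, 8.22 and 8.08. With saline it read 8.34 on all 3 SSS arrays and 8.38, 8.31 and 8.36 in MSS, so the groups overlapped. Several counts moved when a single array was left out. Shares of all genes were not computed with arrays left out, here or below. These counts therefore do not show whether the members moved apart from other genes. Without SSS replicate 1 the 9 lower members with saline became 3, and without SSS replicate 3 they became 16. With morphine, the 15 higher members became 5 without MSM replicate 3 and 7 without SSM replicate 3, and with arrays centred on their median 15 were lower and 4 higher, against 4.93% and 6.36% of all genes. The 9 lower members with morphine became 5 without MSM replicate 3 or without SSM replicate 2.

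**Figure D4:**
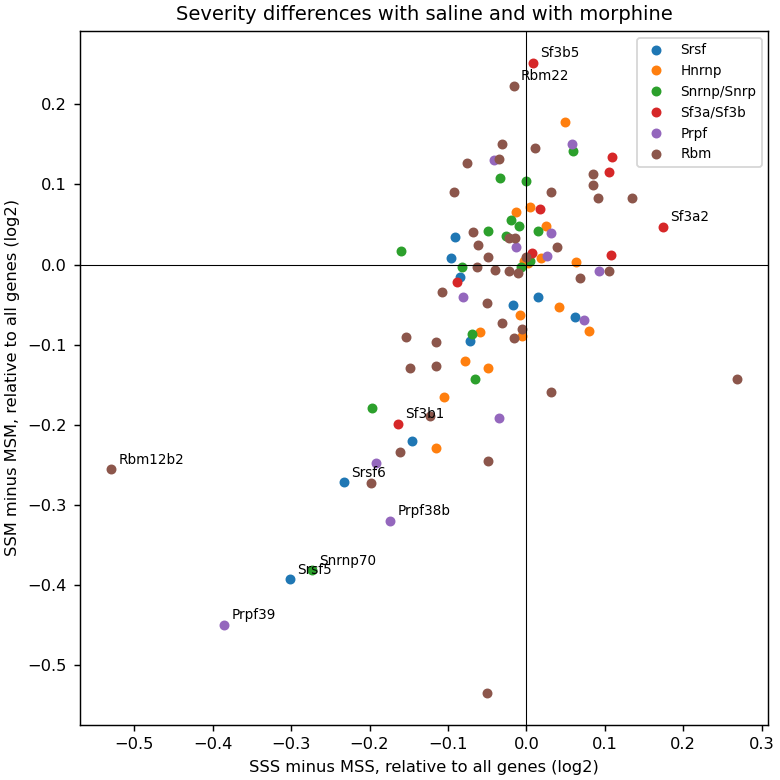
Severity difference with saline (SSS minus MSS, horizontal axis) against that with morphine (SSM minus MSM, vertical axis), each relative to the median of all genes on the log2 scale, for the 105 members coloured by family. Snrnp70, Srsf5, Prpf39, Srsf6 and Sf3b1 lie at the lower left, and the lowest unlabelled point is Rbms3, whose MSM replicate 3 stands apart.

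The severe-stress arrays were not alike. A family score was taken per array as the median over the family of the value minus the gene's mean over all arrays, less the same median over all genes. For Srsf it was 0.0188 to 0.106 in CC and 0.00562 to 0.0674 on the 6 mild-stress arrays. On the severe-stress arrays of SS numbers 9 and 10 it was -0.151 to -0.0403, below all others. On those of SS number 8, SSS replicate 3 and SSM replicate 1, it was 0.0227 and 0.0332, within the range of mild stress. Prpf scores behaved alike, with 0.0224 and 0.0242 for SS number 8 and -0.0905 to -0.0153 for numbers 9 and 10, although the last of these overlapped with mild stress, which reached down to -0.0165. SF3 scores were highest on SSM replicate 1, at 0.159, which also had the highest mean of 12 striatum markers, 8.95 against 6.50 to 7.92. The part of the SS number and of these markers in the differences was not tested.

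Arrays were also left out by SS number, again without shares of all genes. Without SS number 8 the 14 lower members in the averaged comparison became 16. Without SS number 10, which holds SSS replicates 1 and 2, SSS is a single array, and without SS number 9 SSM is. Counts from those fits mix lost precision with the arrays removed, so they are not read here. Snrnp70 stayed between -0.35 and -0.23 and Srsf5 between -0.40 and -0.22 under all 28 alternatives, which include these. For Sf3b1 the values were -0.21 to -0.13, for Srsf6 -0.27 to -0.15 and for Prpf39 -0.43 to -0.31. These members were singled out because every severe-stress array was below every mild-stress array. Leaving arrays out could therefore not change their sign. Without MSS replicates 1 and 2 and SSS replicate 2, the arrays with low choroid plexus markers, 6 members were lower and 4 higher. MSS is then a single array, assumed to vary like the other groups.

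**Figure D5:**
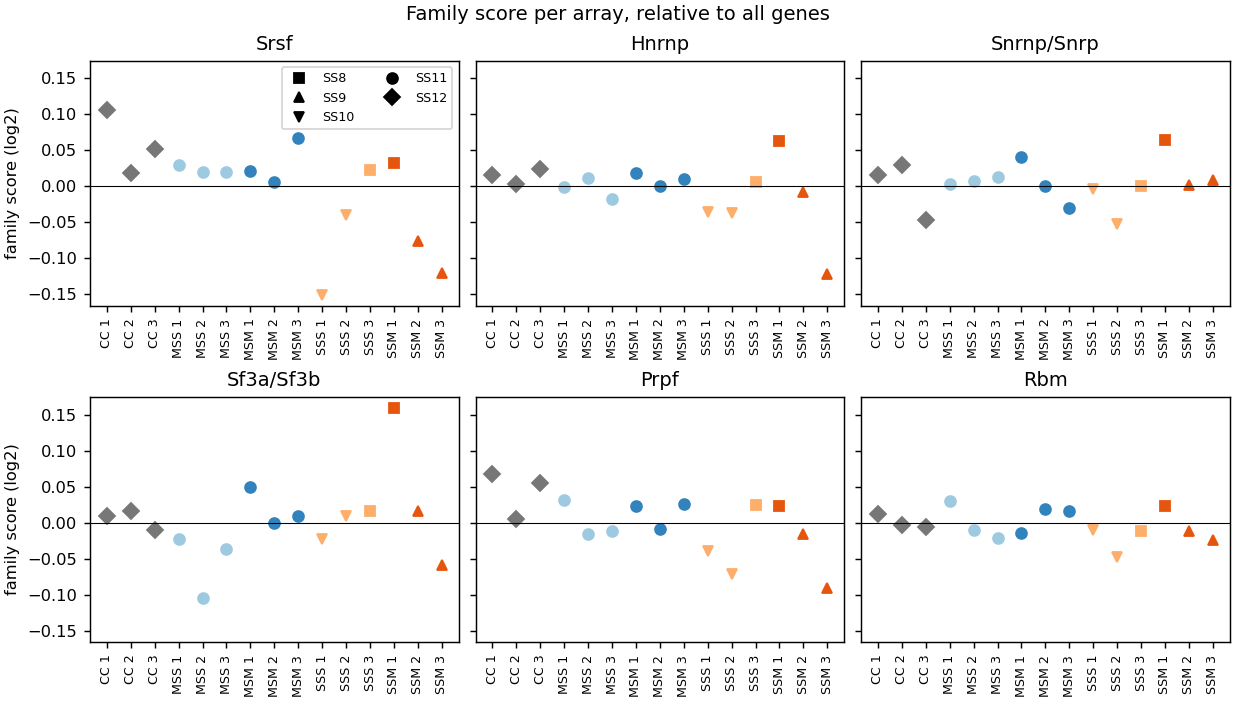
Family score per array (vertical axis, log2, relative to all genes) for the 15 arrays (horizontal axis) in 6 families, coloured by group and with a marker for each SS number. Srsf scores of the severe-stress arrays with SS numbers 9 and 10 lie at -0.151 to -0.0403, below the controls and mild-stress arrays, and those with number 8 lie at 0.0227 and 0.0332.

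Each treated group was also set against CC, and these 4 comparisons share the 3 control arrays. In each of them 0 of 105 members passed the adjusted threshold in limma, as did 0% of all genes. At an unadjusted p under 0.05, MSS had 3 lower members (1.16% of all genes) and 1 higher (1.06%), and MSM had 2 lower (1.18%) and 1 higher (1.58%). SSS had 10 lower members (1.09%) and 0 higher (0.933%), and SSM had 7 lower (1.08%) and 9 higher (7.93%). Side by side over MSS, MSM, SSS and SSM, Snrnp70 had group means of 9.27, 9.20, 9.00 and 8.88 against 9.23 in CC, and Srsf5 10.27, 10.30, 9.97 and 9.97 against 10.23. Means of both genes in the mild-stress groups were close to CC.

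Whether a difference from CC differs between 2 treated groups is the direct comparison of those groups. Such comparisons were made within each drug and within each stress level. Srsf10, a splicing repressor when dephosphorylated, was 0.19 below CC in MSM (-0.19, SE 0.0703) and Rbmx, an X-linked relative of the Hnrnp proteins, 0.21 below (-0.21, SE 0.0699). In MSS, SSS and SSM, Srsf10 gave -0.10, -0.18 and -0.09, and Rbmx -0.10, -0.14 and -0.16. MSM against MSS gave -0.09 (SE 0.0703) for Srsf10 and -0.11 (SE 0.0699) for Rbmx, neither at an unadjusted p under 0.05 in limma. In MSS, Sf3a2 gave -0.16 (SE 0.0699) and Rbm33 0.16 (SE 0.0731). In SSM, Snrpg gave 0.21 and Snrpd2 0.17 (limma adjusted p = 0.541 and 0.542). The 10 lower members of SSS became 1 without SSS replicate 1, 4 without SSS replicate 2 and 14 without SSS replicate 3. They became 5 without CC replicate 1 and 6 without CC replicate 3. In SSM, the 7 lower became 1 without SSM replicate 2 and 2 without CC replicate 1. The 9 higher became 3 without CC replicate 1 and 4 without SSM replicate 3. With median centring 14 were lower (3.36% of all genes) and 2 higher (2.67%).

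Morphine was compared with saline last. Averaged over both stress levels, 0 members passed the adjusted threshold in limma (0% of all genes), and 0 were lower and 10 higher at an unadjusted p under 0.05, against 0.597% and 7.04% of all genes. Sf3b6 had the smallest p, at 0.22 (SE 0.0630, limma adjusted p = 0.649), and Rbm47 the largest difference, at 0.31. Rbm47 read 4.67 on MSS replicate 1 and SSS replicate 2, saline arrays with low choroid plexus markers, and without these and MSS replicate 2 it gave 0.05 (SE 0.102). Rbm3 gave 0.09 and Srsf12 0.13 (SE 0.0436). With median centring 4 members were lower and 2 higher, against 4.7% and 2.22% of all genes, so the direction of this count depends on the scaling. Without SSS replicate 3, or without SSM replicate 2, 15 were higher.

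Under mild stress, MSM against MSS, 0 members passed (0% of all genes), with 1 lower (0.988%) and 4 higher (1.58%). Under severe stress, SSM against SSS, 0 passed (0%), with 0 lower (0.662%) and 12 higher (8.71%). The highest were Sf3b5 at 0.29 and Sf3b6 at 0.27, and Rbm18 had the smallest p, at 0.23 (SE 0.0619, limma adjusted p = 0.494). The 12 became 4 without SSM replicate 3, 5 without SSS replicate 2 and 23 without SSM replicate 2.

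The interaction of morphine with severity gave 0 members past the adjusted threshold (0%), and 0 lower (0.386%) and 4 higher (3.26%) at an unadjusted p under 0.05: Rbm22, Rbm43, Rbm18 and Snrnp27. Rbm22 had the smallest p, at 0.30 (SE 0.0878, limma adjusted p = 0.959). The 4 became 8 without SSS replicate 3 and 2 without any of SSS replicate 2, SSM replicates 1 and 3 and MSM replicate 3. An F-test over the 5 groups in limma called 0 members and 0 genes, with a smallest adjusted p of 0.535 among members.

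Other genes of the pathway were followed through lists in the severity comparison. Of 35 SR-related cofactors and SR protein kinases, 16 were lower and 2 higher at an unadjusted p under 0.05, with a median 0.102 below that of all genes, where 2.8% of all genes were lower and 9.28% higher. None of them passed the adjusted threshold. The lists were chosen with earlier results of these data known, so their counts are a description and no independent evidence. Clk1, a kinase that phosphorylates SR proteins, read 9.63 ± 0.055 in MSS and 9.65 ± 0.167 in MSM, against 9.02 ± 0.351 in SSS and 9.07 ± 0.118 in SSM (SD, n = 3 each). Its difference was -0.59 (SE 0.101, limma adjusted p = 0.0628). Arglu1 gave -0.35, Akap8 -0.33 and Akap8l -0.28, all with severe and mild arrays apart. Rnps1 and Dyrk1a, another kinase of SR proteins, were the 2 higher, at 0.13 and 0.09.

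Of 52 other core spliceosome genes, 5 were lower (9.62%) and 7 higher (13.5%), with a median that differed by -0.00774 from that of all genes. The lowest were the U1-associated Luc7l3 at -0.37 (SE 0.0803) and Luc7l2 at -0.18 (SE 0.0431), and Lsm4, of the ring on U6 RNA, was highest at 0.19. Among 41 neuronal and tissue splicing regulators 2 were lower (4.88%) and 4 higher (9.76%), against the same 2.8% and 9.28% of all genes. Among 18 exon junction and nonsense-mediated decay genes 2 were lower (11.1%) and 1 higher (5.56%). Of 7 measured RNAs listed as retained in the nucleus, 6 were lower, with a median difference of -0.60. Malat1, a nuclear-speckle RNA, gave -0.70 (SE 0.172) and Meg3 -0.60 (SE 0.135). Means of that list were 8.94 to 9.55 on the severe-stress arrays and 9.57 to 9.79 on the mild-stress arrays. Controls, at 9.41 to 9.73, overlapped with severe stress. Between severe and mild stress the list thus moved with the lower members, and its part in their difference was not tested. Choroid plexus markers had a median difference of 0.24, with 14 of 14 above 0, thalamus markers -0.17, with 12 of 13 below 0, striatum markers 0.18, hippocampal neuron markers 0.14 and myelin markers -0.07, and their part was not tested either.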

How the data were processed

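The deposited values are log2 intensities. The authors made them with RMA according to the submitters' processing notes. Its software and version are not given here. RMA subtracts background, quantile-normalizes arrays and summarises probes. The deposited table was used unchanged, and all 15 columns matched a sample (0 unused). Of 35557 probe sets, 21789 carried 1 gene symbol and 1621 several, and 12147 had no annotation here. The brightest probe set per gene left 19938 genes. Left out were 27 probe sets that pair a member's prefix with another symbol, and 15 members had several probe sets. The model, 1 mean for each group on 15 arrays with 10 residual and 4.61 prior degrees of freedom, used lmFit and eBayes of limma 3.58.1 (R 4.3.3), with two-sided tests and Benjamini-Hochberg adjustment. There were 11 contrasts. Groups came from each sample's treatment label, and replicates were numbered in accession order. Named were, per family, the 3 lower and 2 higher members with the smallest severity p, in every other contrast the 2 lower and 2 higher, up to 4 genes of each list, and some members for their role or values. Members and lists were chosen with earlier results of these data known. Promoters came from a RefSeq table of GRCm38.p6. The planned count of protein features was not run, because no protein sequences were used here. Alternatives were scaling, probe set choice, a dim-gene filter, samples fitted, eBayes settings, a block and arrays left out.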

Additional observations from a re-analysis of the deposited data

How the results depend on the processing

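Each result was recomputed under up to 29 alternatives. In the averaged severity comparison the 14 lower and 10 higher members became 19 and 6 with median centring and 25 and 5 with quantile normalization. The fits without the 3 arrays with low Ttr and without SS number 10 each leave a single array in a group. Their counts are therefore not set beside these. Leaving out 1 array gave 12 to 17 lower and 6 to 13 higher, with 6 higher without MSM replicate 3 or SSM replicate 3. Members past the adjusted threshold rose from 0 to 2 with quantile normalization (Snrnp70 and Sf3b1, limma adjusted p = 0.0445 each) and to 1 with trend and robust eBayes (Snrnp70).

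The member median minus the all-gene median in SSM against MSM, -0.0032, became -0.0352 without SSM replicate 1 and MSM replicate 3, -0.0379 without SS number 8 and 0.0346 without SS number 9, and lay between -0.0379 and 0.0116 when 1 array was left out. Without SS number 9 it became 0.0321 in SSM against CC (-0.0306 in full), 0.0946 in SSM against SSS (0.0187) and 0.0695 for the interaction (0.00732). Without SS number 10 the last 2 were -0.0168 and -0.0277. Leaving out arrays by SS number was chosen after seeing the data. Without SS number 9 SSM is a single array, and without SS number 10 SSS is.

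Of 69 results for named members, 1924 recomputed values included 1909 on the same side of the threshold with the same sign, 3 newly past it and 12 of opposite sign. The severity difference of Srsf2, 0.0224, became -0.00294 with median centring, -0.0311 with quantile normalization, -0.0103 without low-Ttr arrays and -0.0236 without SS number 8, and ranged from -0.00497 to 0.0517 with 1 array left out. That of Sf3a3, -0.0202, became 0.00233, 0.00995 and 0.0306 without low-Ttr arrays, SS number 9 and SS number 10, and ranged from -0.078 to 0.0315 with 1 array left out. In SSM against SSS, Prpf40b went from -0.106 to 0.0615 without SS number 8 and Snrnp70 from -0.119 to 0.00723 without SS number 9. The cause was not tested.

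CC and MSM share H numbers in their titles, which no label ties to a litter or day. With the H number as a replicate block in a paired fit of these groups, the lower members went from 2 to 1 and 1 stayed higher, and Rbmx gave -0.213 (limma adjusted p = 0.999). Fitting the SS number as a random block (correlation 0.065) left 14 lower and 8 higher members for severity.

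Outside the averaged comparison, counts moved with scaling. SSM against MSM had 22 lower and 4 higher with quantile normalization, SSS against MSS 18 lower, SSM against CC 18 lower and 2 higher, and SSM against SSS 3 lower and 5 higher. Shares of all genes with that scaling were computed only for the averaged severity comparison. There the lower share rose from 2.8% to 6.17% of all genes and the higher share fell from 9.28% to 4.92%. The larger lower counts are therefore not read as larger differences of the members. With 3 arrays a group and SEs near 0.08 between 2 groups, smaller differences could not be resolved.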
